A study of Mus musculus with 51 samples.

Results

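Peaks of 3 chromatin antibodies were examined at the transcription start sites (TSSs) of 6 genes that regulate the pachytene and later germ cell programme: Mybl1, Tcfl5, Brdt, Rfx2, Crem and Ovol1. They were chosen by name, as known regulators, from 20722 protein-coding genes on chromosomes 1 to 19 of the mouse, and all 6 are described. A gene was called in a list when a peak reached, by at least 1 bp, into a window of 500 bp to each side of a protein-coding transcript's 5′ end (GENCODE M21, mm10). The 6 genes have 32 such TSSs, which fall into 12 promoters once overlapping windows are joined. There were 20 peak lists, all made by ChIP-Seq from nuclei sorted from the testis of adult C57BL/6J mice. Formaldehyde-fixed nuclei with replicated DNA and the meiotic protein SCP3 were sorted by flow cytometry into leptonema (by STRA8) and, in a separate sort by H1t and SCP1, into zygonema, early pachynema, late pachynema and diplonema. H3K4me3 was profiled with an EpiCypher antibody in experiments 1 and 2 of each stage (10 lists). H3K4me2/3, read with an Abcam antibody that binds both the dimethyl and the trimethyl form, had 5 lists, all of experiment 2, while the 5 H3K9ac lists were of experiment 1. The labels of these 5 disagree, since their titles name H3K9ac and their antibody field names H3K4me3, and they are taken here as H3K9ac, the target that the study's methods give for that catalogue number. No animal carried a mutation or received a treatment, and no source used here says how many animals gave each library. The sorted populations are enriched for their stage and not pure, and a missing or narrow peak in fewer nuclei of a kind cannot be told apart from less signal in each nucleus.

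H3K4me3 and H3K9ac mark the nucleosomes around active promoters, and H3K4me2 reaches further out over promoters and enhancers. In the male germ line, a large change of gene expression takes place as spermatocytes enter pachynema. Mybl1 (A-MYB) is a DNA-binding activator of pachytene genes and of pachytene piRNA precursors, and Tcfl5 is a basic helix-loop-helix factor of spermatocytes and spermatids. Brdt is the testis-specific member of the BET family, whose bromodomains read acetylated histones. Rfx2 binds X-box elements and is needed for spermatid development, Crem gives rise to activators of post-meiotic genes and to repressors, and Ovol1 is a zinc finger repressor needed for progress through pachynema.

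The sequence before the start of 3 of the 6 genes (Tcfl5, Brdt and Rfx2) is in the RefSeq promoter table for GRCm38.p6, the assembly that mm10 is made from. It is shown for these genes alone, because that table holds no promoter for Mybl1, Crem and Ovol1. Each stretch ends at the base before the first annotated start, and all of it lies upstream of the gene. Capitals mark matches, on either strand, to the MYB letters TAACNG and CAACNG, the cyclic AMP response element TGACGTCA and the shorter TGACG, the X-box letters GTTGCC, the E-box CACGTG and the OVOL letters CCGTTA, which overlap TAACNG read on the other strand.
Tcfl5 (chr2:180642709-180642941, minus strand): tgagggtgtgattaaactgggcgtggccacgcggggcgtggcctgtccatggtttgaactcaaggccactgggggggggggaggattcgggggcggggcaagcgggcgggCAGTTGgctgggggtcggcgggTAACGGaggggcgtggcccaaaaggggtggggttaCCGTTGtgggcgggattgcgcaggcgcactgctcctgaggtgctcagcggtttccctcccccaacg
Brdt (chr5:107330944-107331158, plus strand): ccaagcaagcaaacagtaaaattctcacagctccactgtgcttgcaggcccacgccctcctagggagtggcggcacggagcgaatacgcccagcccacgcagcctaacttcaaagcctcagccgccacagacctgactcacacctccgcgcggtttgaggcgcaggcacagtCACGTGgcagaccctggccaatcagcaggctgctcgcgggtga
Rfx2 (chr17:56831014-56831258, minus strand): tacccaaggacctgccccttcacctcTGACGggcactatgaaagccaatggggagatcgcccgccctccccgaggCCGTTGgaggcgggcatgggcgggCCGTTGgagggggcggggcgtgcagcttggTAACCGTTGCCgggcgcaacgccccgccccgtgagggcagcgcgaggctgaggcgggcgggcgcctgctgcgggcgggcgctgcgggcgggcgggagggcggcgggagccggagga
The Tcfl5 stretch of 233 bases held 18 CpG dinucleotides, with 68.7% G and C. It had 1 match to TAACNG, which was also the match to CCGTTA, and 2 matches to CAACNG. The Brdt stretch of 215 bases held 14 CpG and 1 E-box. The Rfx2 stretch of 245 bases held 30 CpG, with 75.9% G and C, and its matches were 1 TAACNG, 3 CAACNG, 1 GTTGCC and 1 TGACG. The TAACNG match, 1 CAACNG match and the X-box letters of Rfx2 overlapped one another. Of 31396 RefSeq promoters of 300 bases, 23.4% held TAACNG, 34.4% CAACNG, 1.83% TGACGTCA, 21.0% TGACG, 12.2% GTTGCC, 7.14% CACGTG and 2.74% CCGTTA. None of the 3 stretches held TGACGTCA. A match is a description of the letters only.

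The lists differed in length, which bears on every call. They held 4883 to 15699 peaks for H3K4me3, 17561 to 30943 for H3K4me2/3 and 516 to 16003 for H3K9ac, and the files give no depth for the libraries. The sorting marker Stra8 was called for H3K4me3 in both leptonema libraries and in no later one, and Sycp3 was called in all 10. The gene for H1t (Hist1h1t) had calls only in leptonema experiment 1 (258 bp) and zygonema experiment 2 (747 bp), and none in the H1t-positive stages, late pachynema and diplonema. The share of all genes called ran from 25.2% in early pachynema experiment 2 to 46.3% in leptonema experiment 2, and was 38.7% in leptonema experiment 1. Of 4 Sertoli cell markers, 3 were called in leptonema experiment 2 (Sox9 at 1391 bp, Wt1 at 1026 bp and Gata4 at 3669 bp), 1 in zygonema experiment 2 (Wt1 at 245 bp) and 0 in the other 8 H3K4me3 libraries. For H3K4me2/3, 3 of these 4 markers were called at leptonema (Sox9, Wt1 and Gata4), 2 at zygonema and 1 (Gata4) at each later stage. Amh was called in no list. Of 5 spermatogonial markers, 1 or 2 were called in 3 early H3K4me3 libraries and 0 in the rest. Of 4 Leydig cell markers 1 was called (Insl3, 288 bp, in diplonema experiment 2). None of the 5 round spermatid markers had an H3K4me3 call.

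Mybl1, Tcfl5, Brdt, Rfx2 and Crem, 5 of the 6 regulators, already carried H3K4me3 at leptonema, and Ovol1 was called in both libraries only at diplonema. An H3K4me3 call in both libraries of the stage was found for 5 of 6 regulators at leptonema, where 38.1% of all 20722 genes had one. The same 5 were called at zygonema (32.4% of all genes), early pachynema (24.9%) and late pachynema (25.8%), and diplonema had 6 of 6 (28.6%). These 5 were called in all 10 H3K4me3 lists, as were 18.0% of all genes. Ovol1 was called in 4 of the 10. Its first call in both libraries at diplonema placed it with 2.39% of all genes. H3K4me2/3 was called at 6 of 6 regulators at every stage, against 64.7% of all genes in leptonema, 59.4% in zygonema, 53.7% and 55.4% in early and late pachynema, and 53.3% in diplonema. A call at all 5 stages was found for 47.8% of genes. H3K9ac was called at 1 of 6 regulators in leptonema (14.8% of all genes) and at 6 of 6 in zygonema (41.1%). It was called at 5 of 6 in early pachynema (35.3%), at 4 of 6 in late pachynema (8.27%) and at 0 of 6 in diplonema (1.99%). The regulators were chosen as germ cell genes, and these counts are a description without a test. They depend on how peaks were counted. With every list trimmed to an equal number of its widest peaks, H3K4me3 was called in both libraries for 3 regulators at leptonema and zygonema, and for 5, 5 and 6 at the later stages. Trimming left 516 peaks in each H3K9ac list, of 16003 at zygonema and 7744 at early pachynema. The H3K9ac counts were then 1, 0, 0, 1 and 0 from leptonema to diplonema. The high counts at zygonema and early pachynema were thus not seen, but so short a list keeps only its widest peaks and cannot decide whether the counts differ between stages. Keeping only peaks wider than the median of their list also left 3 regulators at leptonema and zygonema. When a peak had to cover at least 501 bp of a window, both H3K4me3 libraries were called for 2 regulators at zygonema and early pachynema and for 3 at late pachynema. For these alternatives the share of all genes is not given here.

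**Figure D1:**
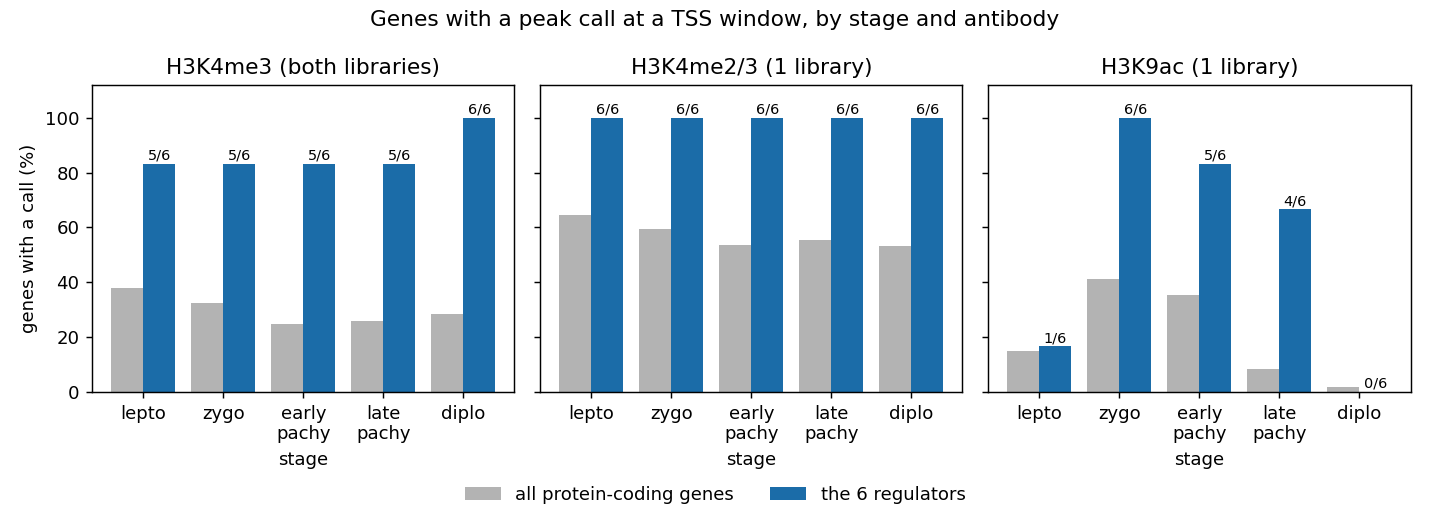
Percent of genes with a peak call at a TSS window, by stage, for H3K4me3 (both libraries), H3K4me2/3 and H3K9ac (1 library each). Grey bars stand for all 20722 protein-coding genes and blue bars for the 6 regulators, with the number called above each bar. For H3K9ac the regulators go from 6 of 6 at zygonema to 0 of 6 at diplonema, where the list held 516 peaks. With every H3K9ac list cut to its 516 widest peaks, they were 0 of 6 at both stages.

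Mybl1 (ENSMUSG00000025912, chromosome 1, 9667415 to 9700209, minus strand) has 3 protein-coding TSSs in 1 promoter. Its H3K4me3 peaks measured 1004 bp and 2041 bp at leptonema in experiments 1 and 2, 1185 bp and 1050 bp at zygonema, and 1289 bp and 952 bp at early pachynema. They measured 1309 bp and 1162 bp at late pachynema and 1442 bp and 2087 bp at diplonema. Both libraries of leptonema and diplonema differed by more than those of the other stages, and the ranges of neighbouring stages overlapped throughout the order of mean width. The widest early peak, of leptonema experiment 2, was in the library with 3 of 4 Sertoli cell markers called, and the relation of these calls to its width was not tested. That order was diplonema (1765 ± 456 bp, SD, n = 2), leptonema (1523 ± 733 bp), late pachynema, early pachynema and zygonema (1118 ± 95.5 bp). The peak covered the outermost TSS in all 10 libraries, and it reached a median of 690 bp upstream and 432 bp downstream of it. H3K4me2/3 peaks at Mybl1 measured 1968 bp, 1939 bp, 2268 bp, 2181 bp and 3478 bp, in order from leptonema to diplonema. H3K9ac was called from zygonema (1353 bp) through early pachynema (1353 bp) to late pachynema (224 bp). The H3K9ac call was thus first seen a stage after that of H3K4me3, in a leptonema list of 2823 peaks against 16003 at zygonema.

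Tcfl5 (ENSMUSG00000038932, chromosome 2, 180621956 to 180642708, minus strand) has a single protein-coding TSS. Its H3K4me3 peaks measured 809 bp and 1149 bp at leptonema, 1375 bp and 739 bp at zygonema, and 731 bp and 848 bp at early pachynema. At late pachynema they were 695 bp and 942 bp, and at diplonema 1662 bp and 1631 bp. Both diplonema peaks were wider than any of the other 8, and the share of all genes with this pattern was not taken. The mean at diplonema was 1647 ± 21.9 bp (SD, n = 2), against 1057 ± 450 bp at zygonema, the next stage in the order, followed by leptonema, late pachynema and early pachynema with overlapping ranges. The peaks lay mostly inside the gene. They reached a median of 46.5 bp upstream and 878 bp downstream of the TSS, and in 4 of the 10 libraries the peak began downstream of the TSS and did not cover it. H3K4me2/3 at Tcfl5 was wider at each later stage, with 1793 bp in leptonema, 1931 bp in zygonema, 2023 bp and 3463 bp in early and late pachynema, and 4783 bp in diplonema. Relative to the median width of its list, this was 2.06 times at leptonema and 3.70 times at diplonema. H3K9ac was called only at zygonema (1482 bp) and early pachynema (1227 bp), and both peaks began inside the gene. A further site lay 14539 bp into Tcfl5, away from any TSS. It was called for H3K4me3 in zygonema experiment 1 (293 bp) and for H3K4me2/3 at leptonema (179 bp) and zygonema (876 bp), and in no later list. These values are the summed length of the site's peaks in each list.

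Brdt (ENSMUSG00000029279, chromosome 5, 107331159 to 107387058, plus strand) has 2 protein-coding TSSs in 1 promoter. It had some of the narrower H3K4me3 peaks of the group. They measured 524 bp and 1050 bp at leptonema, 638 bp and 490 bp at zygonema, and 811 bp and 809 bp at early pachynema. Those of late pachynema were 525 bp and 930 bp, and those of diplonema 914 bp and 1239 bp. The highest stage mean was again that of diplonema (1077 ± 230 bp, SD, n = 2), whose libraries lay above both of early pachynema, the next in the order (810 ± 1.41 bp). Diplonema experiment 1 (914 bp) lay below experiment 2 of leptonema (1050 bp) and of late pachynema (930 bp), so diplonema overlapped those stages. Within its list, however, the Brdt peak ranked highest at early pachynema, where it was wider than or equal to 82.6% ± 6.35 (SD, n = 2) of all peaks, against 69.9% ± 5.97 at diplonema. The peak reached a median of 45.0 bp upstream and 747 bp downstream, and it did not cover the first TSS in 4 of 10 libraries. H3K4me2/3 peaks measured 1714 bp, 1902 bp, 2293 bp, 3832 bp and 3234 bp from leptonema to diplonema, so that late pachynema was the widest. H3K9ac of Brdt was called in zygonema (1428 bp) and in early (845 bp) and late pachynema (199 bp). A second site lay 28210 bp into the gene, over the 5′ end of Brdt-204, a transcript annotated as processed and not protein-coding. For H3K4me3 it was called in both libraries of leptonema (451 bp and 672 bp), of zygonema (360 bp and 433 bp) and of diplonema (828 bp and 963 bp), in late pachynema experiment 2 (230 bp), and in neither library of early pachynema. Values at this site are the summed length of its peaks in each list. By this measure H3K4me2/3 was lowest at early pachynema (621 bp, against 1060 bp to 2042 bp at the other 4 stages). H3K9ac was called at the site at early pachynema (443 bp) and zygonema (687 bp) and at no other stage.

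**Figure D2:**
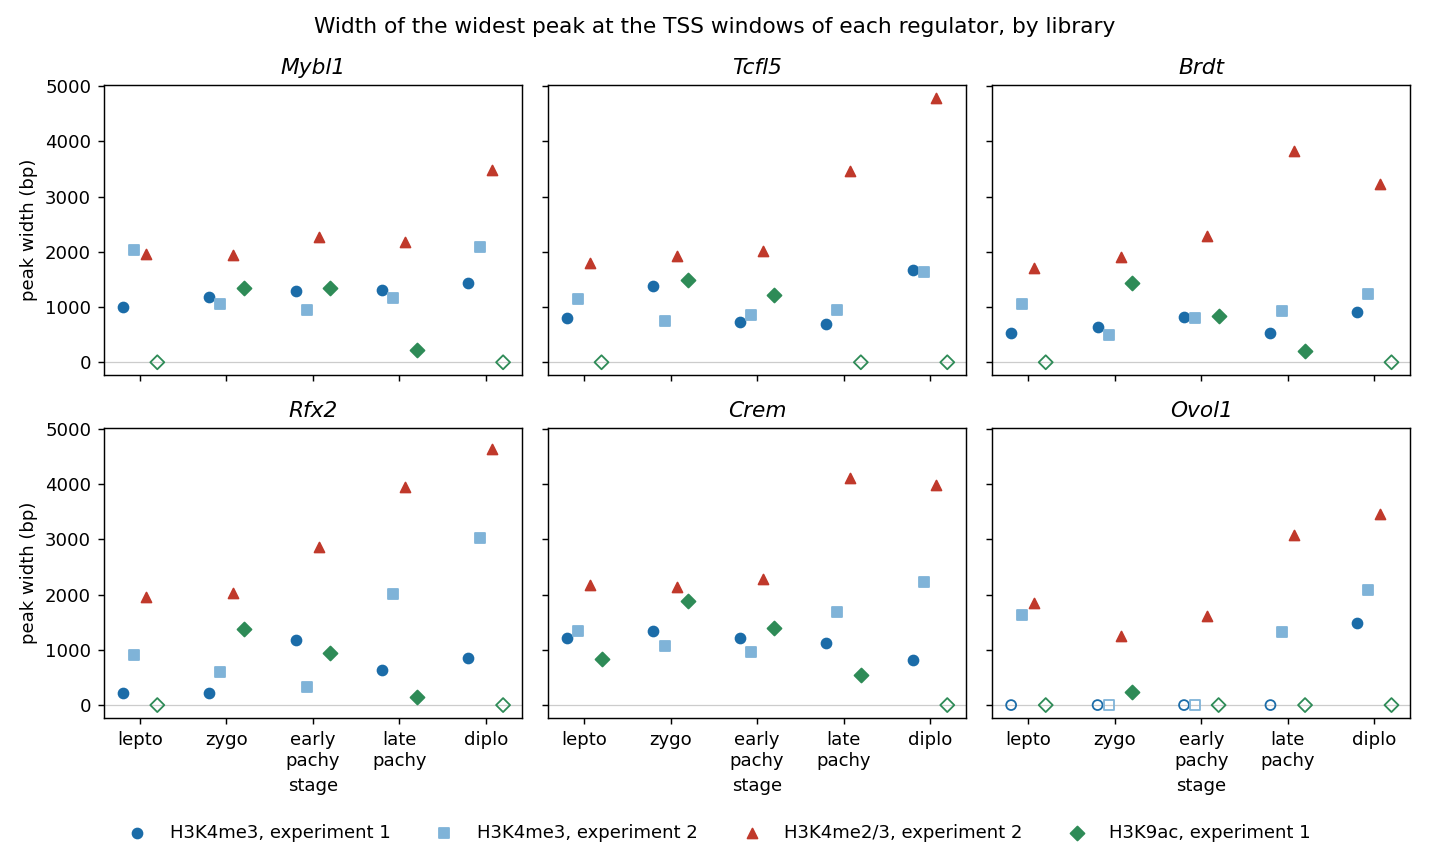
Width of the widest peak at the TSS windows (bp, vertical axis) by stage, with 1 point per library and open symbols at 0 where no peak was called. H3K4me2/3 (red) was wider than H3K4me3 of the same experiment in 29 of 30 pairs, and H3K9ac (green) was mostly called at zygonema and early pachynema.

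Rfx2 (ENSMUSG00000024206, chromosome 17, 56775897 to 56831013, minus strand) has 3 protein-coding TSSs in 1 promoter, and it had the widest range of H3K4me3 width among the regulators. Its peaks measured 226 bp and 903 bp at leptonema, 217 bp and 598 bp at zygonema, and 1173 bp and 333 bp at early pachynema. At late pachynema they measured 638 bp and 2014 bp, and at diplonema 847 bp and 3025 bp. The peak of diplonema experiment 2 was wider than or equal to 99.4% of its list, and that of zygonema experiment 1 than only 7.67%. The libraries of each stage were far apart, and the ranges of neighbours overlapped at every step of the order, which ran from diplonema (1936 ± 1540 bp, SD, n = 2) through late pachynema, early pachynema and leptonema to zygonema (408 ± 269 bp). In diplonema experiment 1 the signal was called as 2 peaks, of 398 bp upstream and 847 bp downstream, with the first TSS in the gap. H3K4me2/3 at Rfx2 was wider at each later stage (1951 bp, 2036 bp, 2870 bp, 3953 bp and 4644 bp). It extended on both sides, from 665 bp upstream and 1285 bp downstream at leptonema to 2466 bp and 2177 bp at diplonema. H3K9ac was called at zygonema (1381 bp), early pachynema (941 bp) and late pachynema (145 bp).

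**Figure D3:**
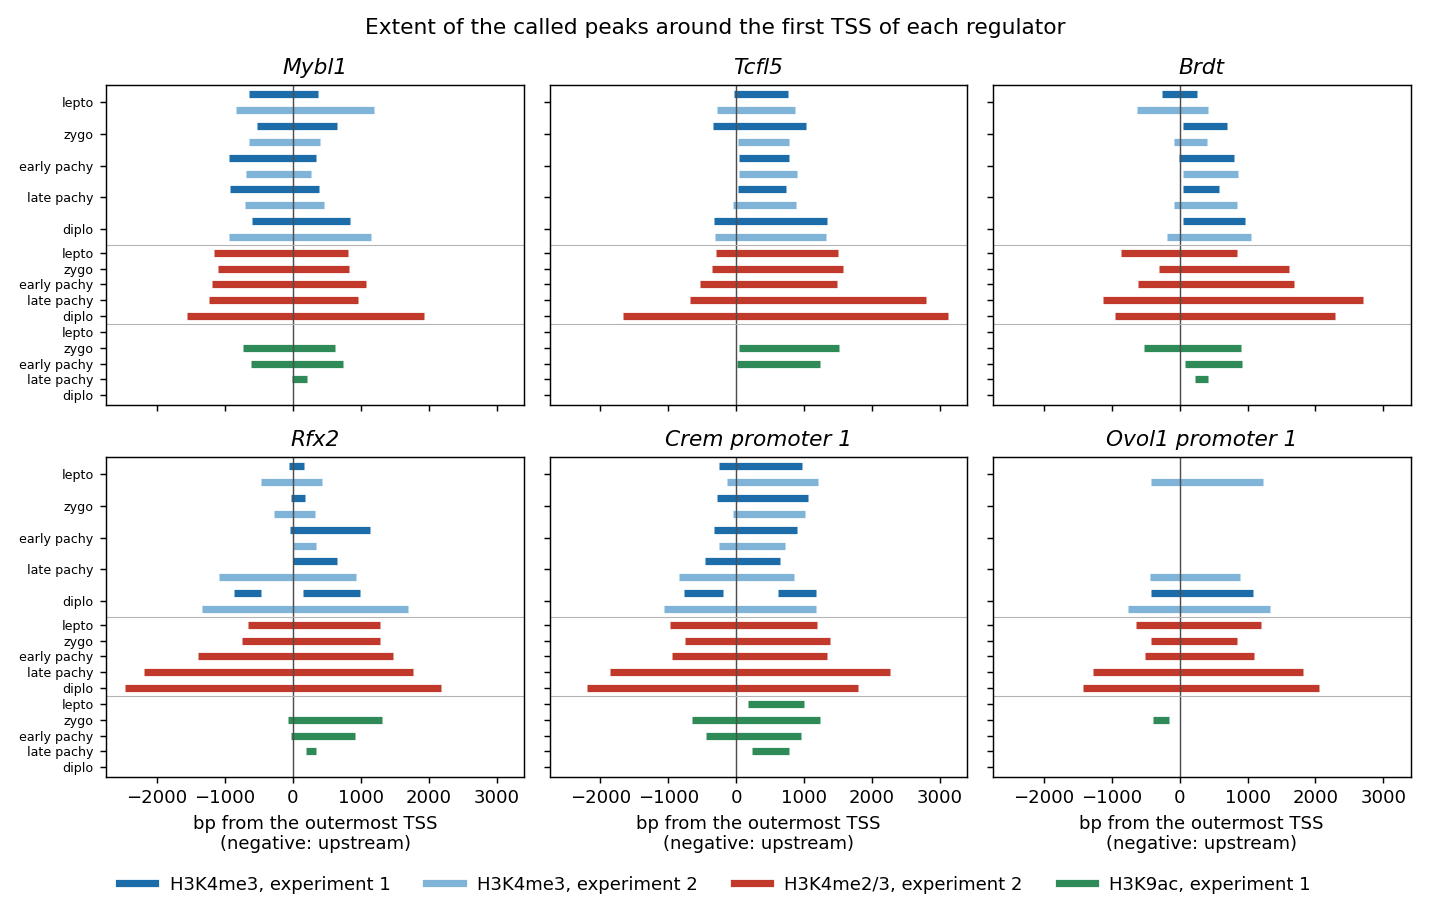
Extent of each called peak, in bp from the outermost TSS of the gene (vertical line; negative values are upstream), by library. For Tcfl5, Brdt and Rfx2 most H3K4me3 peaks reach further downstream than upstream, whereas those of Mybl1 reach further upstream in 6 of 10 libraries. The gaps at Rfx2 and Crem in diplonema experiment 1 separate 2 peaks of the same library.

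Crem (ENSMUSG00000063889, chromosome 18, 3266048 to 3337748, minus strand) is annotated with 32 protein-coding transcripts from 21 TSSs in 6 promoters, numbered here from the outermost. Peaks were called at promoters 1 and 5, and promoters 2, 3, 4 and 6 were called in none of the 20 lists. These were the only 4 of the regulators' 12 promoters without an H3K4me3 call, against 61.5% of all 30989 promoters. At promoter 1, H3K4me3 peaks measured 1220 bp and 1337 bp at leptonema, 1349 bp and 1064 bp at zygonema, and 1213 bp and 969 bp at early pachynema. In late pachynema they were 1116 bp and 1685 bp, and in diplonema 571 bp and 2234 bp. Its 2 diplonema libraries held the narrowest and the widest peak, because experiment 1 was called there as 2 peaks of 571 bp each with the outermost TSS in the gap. Promoter 5, which starts 3 protein-coding transcripts at positions 3299452 to 3299559, had no H3K4me3 call in the 8 libraries from leptonema to late pachynema and was called in both diplonema libraries (815 bp and 936 bp). Of 30989 promoters of all genes, 0.410% were called in both diplonema libraries and in none of the other 8, and of the 12 promoters of the regulators this was 1. H3K4me2/3 was called at promoter 5 earlier, at early pachynema (1618 bp), late pachynema (2427 bp) and diplonema (2763 bp), and at neither leptonema nor zygonema. H3K9ac was called there at early pachynema alone (418 bp). The H3K4me2/3 peaks at promoter 1 measured 2172 bp, 2136 bp, 2274 bp, 4116 bp and 3979 bp from leptonema to diplonema. Crem was the only regulator with an H3K9ac call at leptonema (828 bp), which was followed by 1889 bp at zygonema, 1393 bp at early pachynema and 553 bp at late pachynema. The TSS of Gm6225, a non-coding gene on the other strand 750 bp from the nearest Crem TSS, lay inside the Crem peak in 11 of 20 lists, and ChIP-Seq does not separate the strands. As widest peak of the gene, promoter 5 stood for Crem in diplonema experiment 1 (815 bp). With that value, the order of stage means was diplonema (1525 ± 1003 bp, SD, n = 2), late pachynema, leptonema, zygonema and early pachynema (1091 ± 173 bp), with overlap at each step.

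**Figure D4:**
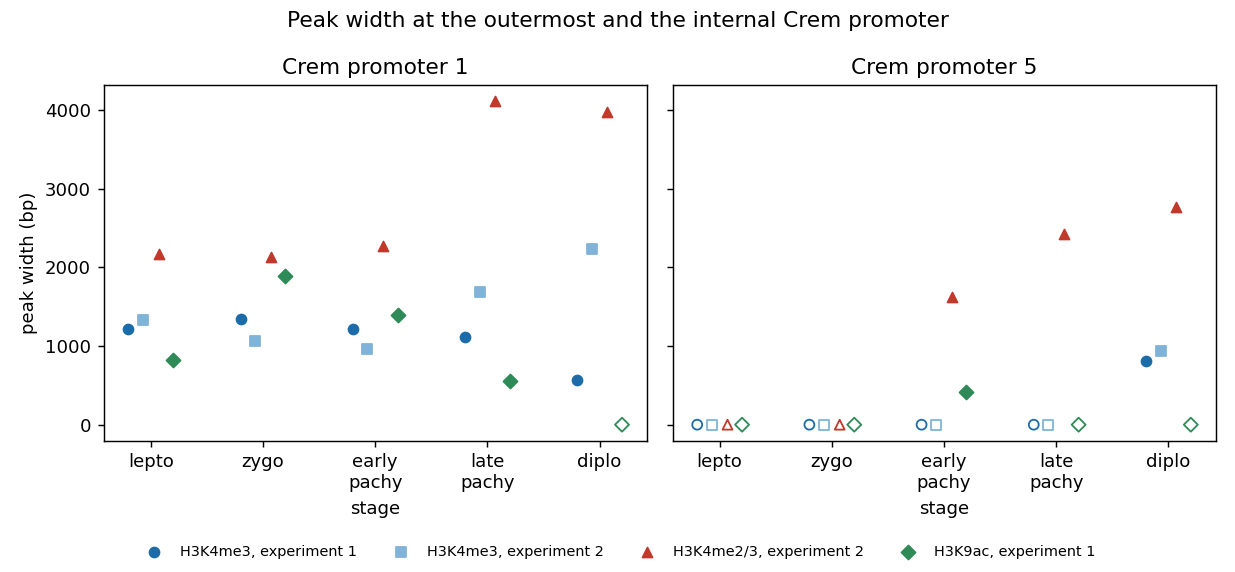
Peak width (bp) at Crem promoter 1, the outermost, and promoter 5, inside the gene, by stage. Each point is 1 library and open symbols at 0 mark libraries without a call. At promoter 5 the H3K4me3 calls (blue) are those of diplonema, 815 bp and 936 bp, while H3K4me2/3 (red) is called from early pachynema.

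Ovol1 (ENSMUSG00000024922, chromosome 19, 5549136 to 5560646, minus strand) has 2 protein-coding TSSs, 1 in each of 2 promoters, and the same H3K4me3 peaks touched the windows of both. It was the only regulator without a steady H3K4me3 call. Peaks were called in leptonema experiment 2 (1638 bp), late pachynema experiment 2 (1322 bp) and both diplonema libraries (1492 bp and 2082 bp). The other 6 libraries, including both of zygonema and both of early pachynema, had none. All 4 peaks covered the outer TSS and reached 414 bp to 751 bp upstream of it. The leptonema call was in the library in which 3 of 4 Sertoli cell markers were called, against 0 of 4 in leptonema experiment 1. The sort for replicated DNA, SCP3 and STRA8 is meant to leave Sertoli cells out, and the relation of the marker calls to the Ovol1 call was not tested. H3K4me2/3 was called at every stage, with 1840 bp, 1258 bp, 1604 bp, 3081 bp and 3468 bp in order from leptonema to diplonema. Its narrowest peaks thus fell at zygonema and early pachynema, where H3K4me3 had no call. The H3K4me2/3 list of leptonema, also of experiment 2, likewise held calls at 3 of 4 Sertoli cell markers. Their relation to the 1840 bp peak was not tested. H3K9ac was called only at zygonema, as a peak of 232 bp that lay upstream of the TSS. AC126029.1, an antisense gene whose TSS is 386 bp away, had its TSS inside the Ovol1 peak in 9 of 20 lists, 4 of them for H3K4me3. The neighbouring promoter of Ap5b1, at -7295 bp (upstream), was called in 9 of the 10 H3K4me3 libraries.

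All 6 regulators had their highest stage mean of H3K4me3 width at diplonema, as did 44.2% of the 11215 genes with at least 1 H3K4me3 call. That count rested on diplonema experiment 2, whose list had the greatest median width (773 bp), and without this library it was 3 of 6. When each width was taken as its percentile within its own list, 2 of 6 regulators (Tcfl5 and Ovol1) were highest at diplonema, against 28.7% of all genes. Mybl1 and Brdt then ranked highest at early pachynema, with 93.6% ± 1.97 (SD, n = 2) and the value given above, and Rfx2 and Crem at late pachynema, with 85.0% ± 19.1 and 94.8% ± 2.60. A pair of stages allows no p below 0.333, with 2 against 2 libraries, and single stages were not tested against all others.

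Stages were joined for the tests: leptonema and zygonema (4 libraries) against the 3 later stages (6 libraries), and the 3 H1t-negative stages (6 libraries) against late pachynema and diplonema (4 libraries). The two-sided exact permutation test was run for all 11215 genes, and p-values were adjusted by the Benjamini-Hochberg method. None of the regulators passed an adjusted p of 0.05 in either comparison. Neither did any gene, so that the share of genes called was 0% in each direction, and the smallest adjusted p was 0.115 for the first comparison and 0.165 for the second. At an unadjusted p under 0.05, 1643 genes were wider at the early stages and 267 at the later ones, and 333 were wider at the H1t-negative stages and 1357 at the H1t-positive ones. No regulator was among them in this test, which took the widest peak at a gene. The smallest p that 10 libraries allow was 0.00476. For Rfx2, width was 486 ± 330 bp (SD, n = 4) at the early and 1338 ± 1007 bp (n = 6) at the later stages (exact permutation p = 0.138, adjusted p = 0.434). Split by H1t, it was 575 ± 394 bp (n = 6) and 1631 ± 1109 bp (n = 4), a difference of 1056 bp (exact permutation p = 0.0524, adjusted p = 0.335). The Rfx2 groups overlapped in both splits. Without diplonema experiment 2 the differences, early minus later and H1t-negative minus H1t-positive, were -515 bp and -591 bp. In experiment 1 the H1t-positive mean lay 204 bp above the H1t-negative one, and in experiment 2 it lay 1908 bp above it.

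For Ovol1, with uncalled libraries at 0, the mean was 273 ± 669 bp (n = 6) in H1t-negative and 1224 ± 879 bp (n = 4) in H1t-positive libraries (exact permutation p = 0.162, adjusted p = 0.479), with 1 of 6 and 3 of 4 libraries called. Brdt measured 676 ± 258 bp (n = 4) at the early stages and 871 ± 231 bp (n = 6) at the later ones (exact permutation p = 0.214, adjusted p = 0.547). Early and later means of Tcfl5 were 1018 ± 298 bp and 1085 ± 444 bp (exact permutation p = 0.810, adjusted p = 0.944, n = 4 and 6). Those of Mybl1 were 1320 ± 487 bp and 1374 ± 387 bp (exact permutation p = 0.833, adjusted p = 0.957). Crem had 1243 ± 132 bp and 1339 ± 529 bp (exact permutation p = 0.781, adjusted p = 0.925). For Mybl1, Tcfl5 and Crem the sign of these small differences turned when single libraries were left out, as given in the closing section. Split by H1t, adjusted p was 0.705 for Mybl1 and Crem, 0.586 for Tcfl5 and 0.609 for Brdt in the same test over all genes. No difference in width was detected, which does not show that the widths were equal. With a smallest possible p of 0.00476, a gene can pass the adjustment over 11215 genes only when many genes have p-values that small.

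The other antibodies had 1 library a stage and so no test. H3K4me2/3 was wider than H3K4me3 of the same experiment number in 29 of 30 pairs of a regulator and a stage, the exception being Mybl1 at leptonema (1968 bp against 2041 bp). Over all genes this held in 98.8% of pairs with a call of either antibody, so the regulators resemble the rest here. For the early pachynema libraries of these antibodies, the study lists a different purity and amount of starting chromatin, although they share an experiment number. The pairs of that stage can therefore not be taken to come from the same chromatin. The H3K4me2/3 lists themselves had wider peaks at late pachynema and diplonema, with a median of 1121 bp and 1294 bp against 836 bp to 870 bp at the earlier stages. Relative to that median, Tcfl5 and Rfx2 were widest at diplonema (3.70 and 3.59 times the median) and Brdt, Crem and Ovol1 at late pachynema (3.42, 3.67 and 2.75 times). Mybl1 stayed between 1.95 and 2.69 times. H3K9ac was called in 16 of the 30 pairs with H3K4me3 of experiment 1, and it was the wider of the marks in 10. Over all genes it was the wider in 37.7% of pairs with a call of either mark. The 30 pairs also include Ovol1 at leptonema, early pachynema and late pachynema, where neither mark was called. Such pairs are left out of the share for all genes. At zygonema H3K9ac was wider than H3K4me3 for each of the regulators, Ovol1 having no H3K4me3 call there. At late pachynema it was narrower for each regulator that it was called at. For single stages the share of all genes was not taken. The median widths of the whole lists at zygonema were 787 bp for H3K9ac and 673 bp for H3K4me3 of experiment 1. At late pachynema these medians were 336 bp and 426 bp. The H3K9ac lists went from 16003 peaks at zygonema to 1727 at late pachynema, and the part of list length in this pattern was not tested.

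Genes with the same calls as a regulator in all 20 lists were common for those called throughout and rare for Ovol1. Besides Mybl1 itself there were 454 such genes (2.19% of all others), and Brdt and Rfx2 shared this very pattern with Mybl1, with calls in 18 of 20 lists. Tcfl5, which lacked the H3K9ac call at late pachynema, shared its pattern with 1107 genes (5.34%), and Crem with 696 (3.36%). Ovol1 shared its pattern with 14 genes (0.0676%). By the likeness rule (calls in the most lists alike, then the smallest difference of width percentile, over 20 lists), the nearest genes were Sltm, Mapk6 and Picalm for Mybl1, with a mean difference of 4.39 to 4.77 percentile points. They were Wdr78, Ammecr1l and Chka for Tcfl5, and Fam160b1, Git2 and Dhrs1 for Rfx2. For Brdt they were Lrrc46 and Mrpl10, with equal values, and Mcrs1. Brwd1, Raly and the nonagouti gene (a) were nearest to Crem, and Thbs3, Arl4c and Abca17 to Ovol1.

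Family relatives were listed for the regulators other than Tcfl5. Of 15, 5 were called in all 10 H3K4me3 lists (Brd2, Creb1, Atf1, Rfx3 and Rfx7), and 2 (Rfx6 and Ovol3) in none. Of all genes, 18.0% were called in all 10 lists and 45.9% in none. Rfx4 and Rfx8 had no H3K4me3 call up to early pachynema, 1 at late pachynema and both at diplonema, with 271 bp and 1117 bp for Rfx4 and 627 bp and 855 bp for Rfx8 at diplonema. Ovol2, the relative of Ovol1, was called in leptonema experiment 2 (664 bp), in neither library of zygonema and early pachynema, and in both of late pachynema (257 bp and 2695 bp) and diplonema (3234 bp and 3762 bp). Ovol1 and Ovol2 thus differed in their H3K4me3 calls only in late pachynema experiment 1, and both were called in the leptonema library with the Sertoli marker calls. Brd3, a somatic relative of Brdt, was called in both libraries of leptonema, zygonema and diplonema but in neither of early pachynema. Mybl2 and Myb, relatives of Mybl1, were called in 3 and 2 of 10 lists. None of the 13 relatives with a call passed the test over all genes in either comparison, like all 11215 genes.

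Of 16 other regulators of these stages, 7 were called in all 10 H3K4me3 lists (Sox30, Zfp541, Kctd19, Tbpl1, Hsf5, Nr6a1 and Phf7), and 2 (Fhl5, a coactivator partner of CREM, and Trim66) in none, against the same 18.0% and 45.9% of all genes. Gtf2a1l, a germ cell subunit of the general factor TFIIA, was called first in late pachynema experiment 2 (544 bp) and in both diplonema libraries (395 bp and 1151 bp). Zmynd15, a repressor of haploid genes, had the same calls (251 bp, then 655 bp and 1144 bp). Hsf2, a heat shock factor, was called in all 4 early and in 3 of 6 later libraries. Egr4, a zinc finger factor, was called only in experiment 2, at late pachynema (2384 bp) and diplonema (2379 bp). The late pachynema calls of Gtf2a1l, Zmynd15 and Egr4 thus rest on experiment 2 alone. Its late pachynema list held 9124 peaks, against 5189 in experiment 1, and the study lists a lower purity for it. The relation of either to these calls was not tested.

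Among 10 genes known as targets of the regulators, the 3 listed for Mybl1 had H3K4me3 calls, and the 6 listed for Crem had none, as had 45.9% of all genes. Mov10l1 and Mael, both of the piRNA pathway, were called in all 10 H3K4me3 lists. Piwil1, the pachytene Piwi protein, was called in 1 of 4 early libraries (342 bp, zygonema experiment 2) and in 6 of 6 later ones, from 154 bp at early pachynema to 1706 bp at diplonema. The difference of its mean width, early minus later, was -870 bp (exact permutation p = 0.0238, adjusted p = 0.225), and the H1t-negative minus H1t-positive difference was -1072 bp (exact permutation p = 0.00476, adjusted p = 0.165). Hist1h1t, listed for Rfx2, was called in 2 libraries, given above. Those of Crem, Prm1, Prm2, Tnp1, Tnp2, Odf1 and Smcp, which act in spermatids, had no H3K4me3 or H3K9ac call in any library, and Tnp2 (1488 bp) and Odf1 (1726 bp) had an H3K4me2/3 call at late pachynema alone. Crem itself was called in 19 of 20 lists.

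**Figure D5:**
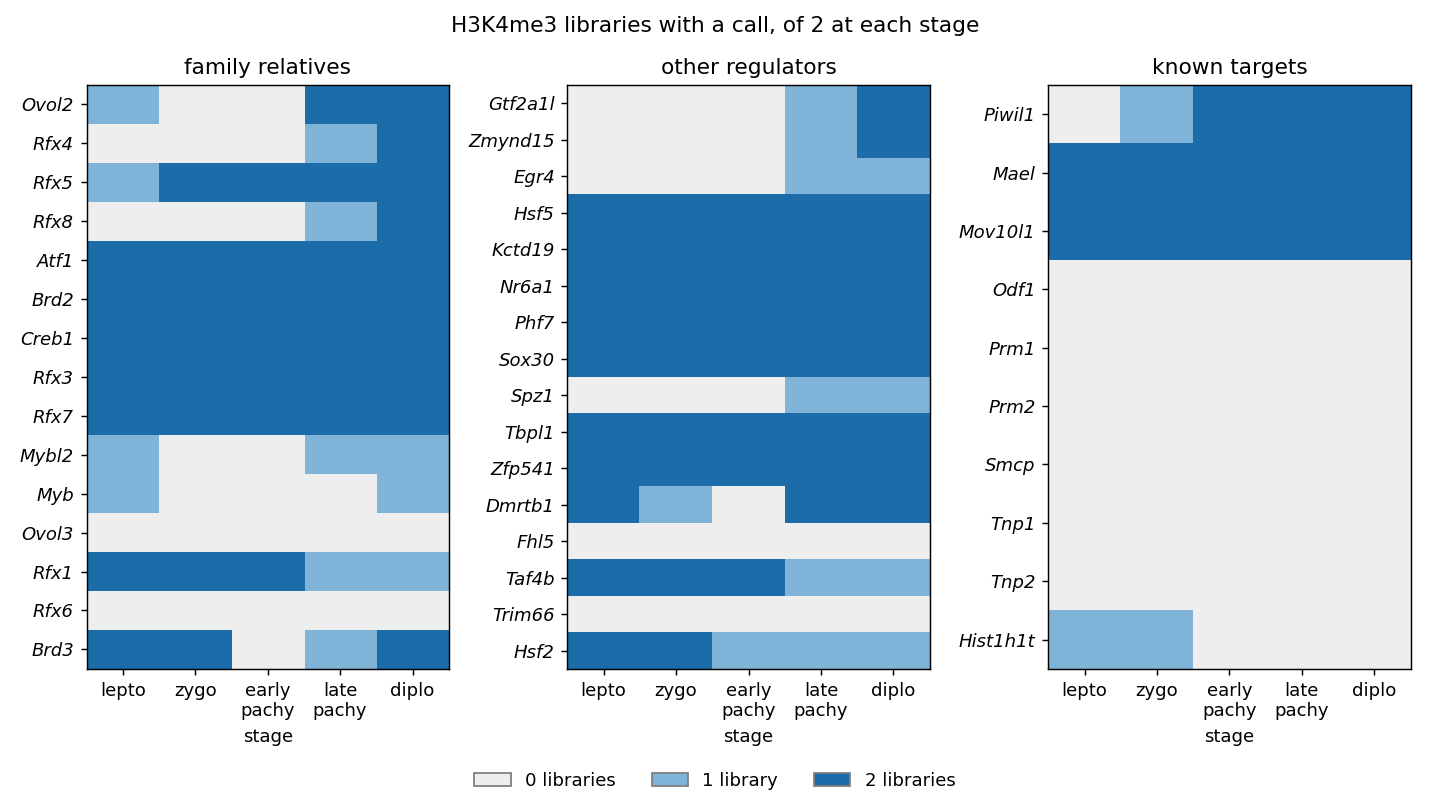
Number of H3K4me3 libraries with a call, of 2 at each stage, for 15 family relatives, 16 other regulators and 10 known targets (1 row per gene). Rfx4, Rfx8, Gtf2a1l and Zmynd15 are called in both libraries at diplonema and in none up to early pachynema, and 6 spermatid genes are not called.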

How the data were processed

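The deposited peak lists hold 1 list per library, not pooled, and give peak positions without a height, count or depth. The authors aligned reads to mm10 with BWA 0.7.12 and called broad peaks with MACS2 2.1.2 against input of the same stage, as stated for H3K4me3. The caller's settings and control for H3K9ac are not given in the sources used here. Without depth, a missing call does not show that a mark is absent, and more deeply sequenced or more enriched libraries can give more and wider peaks. Of 51 samples, 31 without a list were not analysed here.

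Calls and widths (bp of the widest peak at a gene, 0 where uncalled) were computed from the peak positions with Python 3.11.15 and numpy 2.4.6. H3K4me3 width was compared by two-sided exact permutation of the libraries for the 11215 genes with a call in at least 1 library, with Benjamini-Hochberg adjustment, and the code was tested on simulated data. Nothing used here says that experiments 1 and 2 came from separate animals, so p-values measure only the spread between these libraries, which may be technical. The compared groups join stages, so the spread within a group also holds any difference between its stages. One relative is not reported here. The members and gene lists were chosen with earlier results of these data known. Genes named were the members, genes with a TSS in the same peak, the 3 most alike genes per member, and up to 4 genes of each list whose share of called libraries differed most between early and later stages. Other genes of the lists were named after their values were seen, except the markers and the targets. Alternatives changed the window, overlap, transcripts, list length, width filter, libraries needed, width measure, gene filter, replicate block and libraries.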

Additional observations from a re-analysis of the deposited data

Results flagged for a closer look

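In the groups of 4 or 6 H3K4me3 libraries that the tests compared, 24 sets of widths were examined for a library far from the others, and 3 stood apart, all of them in leptonema experiment 2. For normally distributed values chance flags about 1 in 20 such sets, but the sets here share libraries and are not independent. The rate does not apply to Ovol1, where any single call among uncalled libraries at 0 stands apart by construction. Ovol1 had a peak of 1638 bp in this library and none in the other 3 early libraries, and the same peak of 1638 bp stood apart among the 6 H1t-negative libraries, where the other 5 had none. Mybl1 had a peak of 2041 bp there, and the next widest of the 6 H1t-negative libraries was 1289 bp. In the same library 3 of 4 Sertoli cell markers were called, and the relation of these calls to the values was not tested.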

How the results depend on the processing

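Of 204 alternative values of the 12 width tests, none passed an adjusted p of 0.05 (lowest 0.193), 194 kept their direction and 10 turned it. The gene filter and the replicate block leave the difference unchanged by construction, so their values could not turn. Mybl1, early minus later, ranged from -294 to 89.2 bp when 1 library was left out, Tcfl5 from -186 to 48.6 bp and Crem from -201 to 82.9 bp. Rfx2 kept its direction, from -1053 to -515 bp (early minus later) and from -1387 to -591 bp (split by H1t), the smaller sizes being those without diplonema experiment 2. Without that library the H1t-negative minus H1t-positive difference was -50.8 bp for Mybl1, -69.3 bp for Brdt and -13.3 bp for Crem. With the summed length of all peaks at a gene's TSS windows, this difference was larger for Rfx2 (-1155.5 bp) and Crem (-790 bp). For each of them the exact permutation p was 0.0238 and the adjusted p 0.273. For Mybl1, Tcfl5, Brdt and Ovol1 the summed length gave the same difference as the widest peak. In width percentiles, Crem came to 0.026 (early minus later) and 3.87 points (H1t-negative minus H1t-positive). No alternative called any gene. With every list trimmed to an equal number of its widest peaks, H3K4me3 counts in both libraries were 3 of 6 at leptonema and zygonema, and H3K9ac counts were 0 at zygonema and early pachynema and 1 at late pachynema. With only peaks wider than the list median they were 3 at leptonema and zygonema, and 1 for H3K9ac at late pachynema. With at least 501 bp of a window covered, H3K4me3 counts were 2 at zygonema and early pachynema and 3 at late pachynema, and H3K9ac counts 3 at early and 1 at late pachynema. Equal lists and wide peaks hold fewer peaks by construction, and the share of all genes under these alternatives is not given here. H3K4me2/3 counts moved under no alternative by more than 1.5 times. The count of regulators widest at diplonema, examined after seeing the data, was 2 by percentile, 3 relative to the list median and 3 to 6 without 1 library (3 without diplonema experiment 2). Leaving out 1 library left 5 or 6 regulators called at each stage. This could not lower a count, because a call was then needed only in the remaining library of the stage. Libraries of the same experiment number did not deviate together throughout (correlation of deviations over genes from -0.233 to 0.365, above 0.1 in 2 of 10 pairs of stages), so the experiment number was not taken to pair them. With the replicate block, adjusted p of the 12 tests ranged from 0.323 (Rfx2, -1056 bp H1t-negative minus H1t-positive, exact permutation p = 0.04) to 0.941 (Mybl1, -53.5 bp early minus later), and 0 genes were called. The files give no depth, which limits what an uncalled site shows.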

Other observations

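Within 10000 bp before the outermost TSS, Crem had a pair of small sites that were called in 1 list each and lay at no annotated TSS. One, at -1309 bp, was an H3K4me3 peak of 514 bp in zygonema experiment 2, and the other, at -2628 bp, was an H3K4me2/3 peak of 155 bp at late pachynema. Mybl1 and Rfx2 had no further peak inside the gene or in that stretch.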
